A study of Homo sapiens with 12 samples.

Results

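The mitochondrial genome is a small circular DNA that encodes a few subunits of the respiratory chain and the RNAs needed to translate them. Its transcripts were taken here as every row of the count table whose gene symbol starts with MT-, which gave 37 genes of 60612 named rows: 13 mRNAs, 2 rRNAs and 22 tRNAs. A filter on low counts kept 29 of the 37 for testing, namely all 13 mRNAs, both rRNAs and 14 tRNAs. The 8 tRNA genes below the filter held between 0 and 14 counts in any library.

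Counts came from CAMA1, an established line of human breast cancer cells positive for the oestrogen receptor, with a wild-type genotype in every group. Cells were treated for 5 days with DMSO (vehicle), with 100 nM abemaciclib, a CDK4/6 inhibitor, with 5 nM fulvestrant, which degrades the oestrogen receptor, or with both drugs, for which the labels do not restate the doses. Each of the 4 groups held 3 biological replicates, 12 libraries in all, each with 3299119 to 5164667 counts. The comparisons ask how CDK4/6 inhibition and endocrine therapy, alone and together, change transcript levels in these cells.

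Human mitochondrial DNA is transcribed from both strands into long precursors in which tRNAs sit between most of the mRNAs and rRNAs. Excision of the tRNAs by RNase P and the RNase Z enzyme ELAC2 releases the other transcripts, and most of the mRNAs then receive short poly(A) tails from the polymerase MTPAP. The encoded proteins are core subunits of complexes I, III and IV and of ATP synthase, and every other subunit of these complexes is made from a nuclear gene. MT-ND6 is the only mRNA read from the light strand, and it lacks the poly(A) tail of the others. Oestrogen signalling is known to act on mitochondrial biogenesis, in part through nuclear genes such as NRF1 and TFAM, which makes this genome of interest in a line that expresses the receptor.

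The libraries were primed at poly(A) with the QuantSeq 3′ forward kit, so the sequence before a poly(A) tail bears most on the counts. MT-ND6 lacks such a tail, and MT-ND4L and MT-ATP8 end inside MT-ND4 and MT-ATP6. Where the reads of these rows were primed was not tested. All 37 members had an entry in GENCODE v44 on the mitochondrial chromosome of GRCh38, which is 16569 bases long. For 6 of the 13 mRNA genes the annotated sequence stops inside a codon, which in the cell is completed by the poly(A) tail. The last 30 bases of 7 mRNA genes are printed from GRCh38, 5′ to 3′ on the coding strand, with the final codon or the part of it that the genome encodes in capitals. The first 5 are mRNAs that rose with both single drugs, and MT-ND4L and MT-ND6 are the 2 that did not pass the test with any treatment.
MT-ND1: tacaatctccagcattccccctcaaaccTA
MT-CO3: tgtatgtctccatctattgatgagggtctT
MT-ND4: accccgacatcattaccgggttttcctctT
MT-CYB: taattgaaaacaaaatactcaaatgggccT
MT-ATP6: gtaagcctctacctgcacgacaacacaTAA
MT-ND4L: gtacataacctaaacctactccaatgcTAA
MT-ND6: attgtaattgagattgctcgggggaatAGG
These windows lie at chrM:4233-4262, chrM:9961-9990, chrM:12108-12137, chrM:15858-15887, chrM:9178-9207 and chrM:10737-10766 on the + strand and at chrM:14149-14178 on the − strand. MT-ND1 ends in TA, MT-CO3, MT-ND4 and MT-CYB end in T, and MT-ATP6 and MT-ND4L carry a whole TAA. MT-ND6 ends in AGG.

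Transfer RNAs are read here only through the few molecules that an oligo(dT) primer captured. Their genes are printed because the tRNA rows went in both directions: MT-TF, MT-TI, MT-TT and MT-TD were higher and MT-TM, MT-TC, MT-TY and MT-TP lower in at least 1 comparison with DMSO. Capitals mark the longest run of A in the coding strand.
MT-TF: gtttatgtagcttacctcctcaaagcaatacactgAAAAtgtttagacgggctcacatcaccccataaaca
MT-TI: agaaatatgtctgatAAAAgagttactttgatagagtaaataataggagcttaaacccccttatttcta
MT-TT: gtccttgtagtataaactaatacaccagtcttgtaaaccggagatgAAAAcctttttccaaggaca
MT-TD: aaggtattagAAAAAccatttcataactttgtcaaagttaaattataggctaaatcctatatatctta
MT-TM: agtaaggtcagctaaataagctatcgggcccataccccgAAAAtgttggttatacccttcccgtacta
MT-TC: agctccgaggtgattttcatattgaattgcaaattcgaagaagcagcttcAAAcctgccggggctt
MT-TY: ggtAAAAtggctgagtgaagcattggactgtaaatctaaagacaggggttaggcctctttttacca
MT-TP: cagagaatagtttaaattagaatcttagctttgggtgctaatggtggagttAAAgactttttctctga
The first 4 lie on the + strand, at chrM:577-647, chrM:4263-4331, chrM:15888-15953 and chrM:7518-7585. Of the other 4, MT-TM lies on the + strand at chrM:4402-4469, whereas MT-TC, MT-TY and MT-TP lie on the − strand at chrM:5761-5826, chrM:5826-5891 and chrM:15956-16023. MT-TI begins on the base after the end of MT-ND1, and MT-TT on the base after the end of MT-CYB. The longest run of A was 4 or 5 bases in the 4 rows that rose and 3 or 4 bases in the 4 that fell, so the ranges overlapped. In the tested rows that were not called it was 3 in MT-TV, MT-TS2 and MT-TE, 4 in MT-TL1, 2 in MT-TQ and 5 in MT-TL2. Whether it bears on the counts was not tested.

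Several members cannot be fully separated from a neighbour. MT-ATP8 (chrM:8366-8572) overlaps MT-ATP6 (chrM:8527-9207), MT-ND4L (chrM:10470-10766) overlaps MT-ND4 (chrM:10760-12137), and MT-TI shares its last bases with MT-TQ on the other strand. MT-TC and MT-TY share 1 base. The sources do not say whether counting used the strand, so for MT-ND6 and the other − strand genes, reads from the gene and from a precursor of the opposite strand cannot be told apart.

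The cells had a luminal epithelial profile, which by itself does not identify the line. All 7 luminal markers were detected, at 0.568 to 0.764% of counts in sum. Of 10 markers of immune, stromal, endothelial and basal cells, CD3E, PDGFRB and PECAM1 were at 0 in every library. The 10 together held 0.00188 to 0.00228% of counts with DMSO, 0.00252 to 0.00331% with abemaciclib, 0.00298 to 0.00366% with fulvestrant and 0.00257 to 0.00286% with the combination. Of these markers, the collagen genes COL1A1 and COL3A1 were the 2 that passed the filter. COL1A1 was higher with abemaciclib at 0.45 and fulvestrant at 0.48 on the log2 scale, and COL3A1 with fulvestrant at 1.41 and the combination at 1.05, and their part in the results was not tested. Replicates of a group differed in the same direction for most of the 13 mRNAs. DMSO replicate 1, abemaciclib replicate 3 and fulvestrant replicate 3 were each the lowest of their group for 11 of the 13, combination replicate 2 was the lowest for all 13, and DMSO replicate 3 was the highest for all 13. Each library was left out in turn, and 1 further fit, chosen after the data were seen, left out DMSO replicate 1 and fulvestrant replicate 3 together.

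Mitochondrial transcripts took a larger share of counts in every treated library than in any DMSO library. The share was 12.5, 12.0 and 12.4% in the DMSO libraries, 17.7, 18.6 and 17.4% with abemaciclib, 17.2, 20.6 and 17.8% with fulvestrant, and 19.2, 15.6 and 16.3% with the combination. As mean ± SD over 3 libraries it was 12.3 ± 0.295% with DMSO, 17.9 ± 0.590% with abemaciclib, 18.5 ± 1.80% with fulvestrant and 17.0 ± 1.93% with the combination. The treated groups overlapped each other. The widest 95% Wilson interval of a single library was ± 0.0410 percentage points and covers counting error only, so the spread between replicates was far larger than the counting error. A larger share can reflect more of these transcripts or fewer others, and, in bulk RNA, changes in cell number and in RNA per cell cannot be told apart.

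Most of the larger share came from the mRNAs. They took 5.56 ± 0.620% of counts with DMSO, 10.6 ± 0.780% with abemaciclib, 10.7 ± 2.36% with fulvestrant and 9.21 ± 0.857% with the combination, and no treated library overlapped a DMSO library. The 2 rRNAs took 6.63 ± 0.708% with DMSO and 7.19 ± 0.190%, 7.72 ± 1.32% and 7.67 ± 1.29% with the 3 treatments, and these groups overlapped. In fulvestrant replicate 3 the mRNAs took 8.45% and the rRNAs 9.20%, both above their DMSO means. All tRNA rows together took 0.100 ± 0.00799% with DMSO, 0.129 ± 0.00615% with abemaciclib, 0.123 ± 0.0130% with fulvestrant and 0.168 ± 0.0332% with the combination. The share of genes for cytosolic ribosomal proteins moved the other way, from 9.10 ± 0.154% with DMSO to 7.10 ± 0.0168%, 5.05 ± 0.184% and 4.86 ± 0.0344%. MALAT1, an RNA retained in the nucleus, took 2.17 ± 0.136% with DMSO, 2.29 ± 0.0536% with abemaciclib, 2.77 ± 0.552% with fulvestrant and 2.65 ± 0.0958% with the combination, and was called higher with the last 2. NEAT1, another nuclear RNA, was called higher with abemaciclib at 0.74 and with the combination at 0.93 on the log2 scale. The part of these RNAs in the mitochondrial share was not tested.

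**Figure D1:**
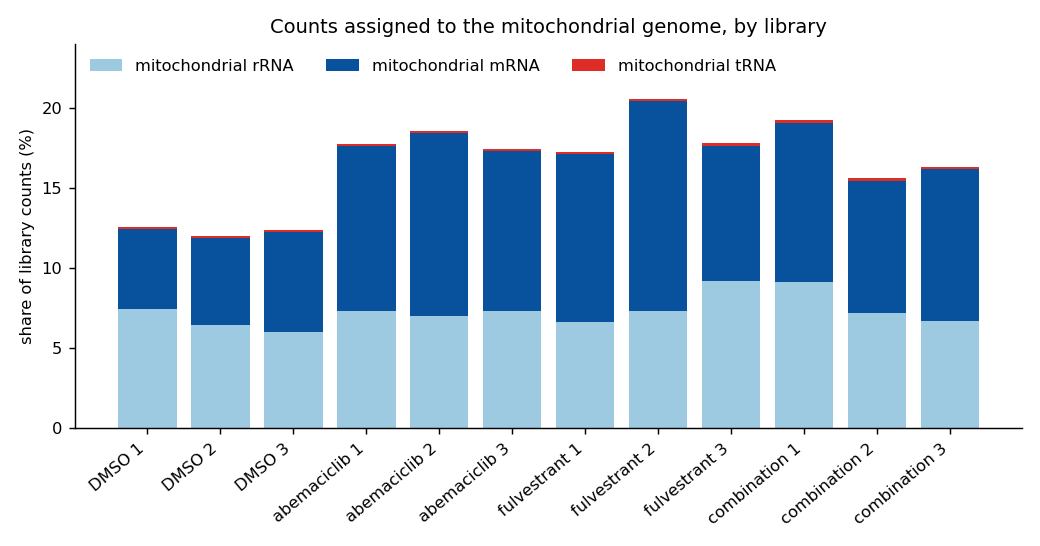
Share of library counts in percent (vertical axis) for each of the 12 libraries, stacked by class of mitochondrial transcript. The mRNA segment is larger in each of the 9 treated libraries than in any of the 3 DMSO libraries, while the rRNA segments overlap between groups.

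Within a library, the counts of the 13 mRNAs were 0.680, 0.837 and 1.04 times those of the 2 rRNAs with DMSO. The ratio was 1.41, 1.65 and 1.37 with abemaciclib, 1.58, 1.80 and 0.919 with fulvestrant, and 1.09, 1.15 and 1.41 with the combination. All abemaciclib and combination libraries lay above the DMSO libraries, and fulvestrant replicate 3 lay within the DMSO range. This ratio uses mitochondrial transcripts alone and does not depend on the scaling of the libraries.

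Levels are given below as CPM, read counts scaled to a common library size with edgeR's TMM method, and changes as log2 fold changes ± standard error (SE). A gene was called when edgeR's quasi-likelihood test gave a Benjamini-Hochberg adjusted p under 0.05 over the 11803 genes tested. The 3 comparisons with DMSO share their control libraries.

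With abemaciclib, 11 of the 13 mRNAs rose and none fell, against 20.5% of all genes tested called higher and 20.7% called lower. The median log2 fold change of the 13 was 0.98, beside 0.00 over all genes. For 12 of the 13 all abemaciclib libraries lay above every DMSO library, which held for 27.0% of all genes. Without DMSO replicate 1, without DMSO replicate 2 or without abemaciclib replicate 2, 9 mRNAs were called in place of 11, with MT-ATP6 and MT-ND4 lost. With DMSO replicate 1 and fulvestrant replicate 3 both left out, 12 were higher, and MT-ND6 was called lower at −0.30.

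Of the complex I subunits, which take electrons from NADH, MT-ND1 read 1483, 1771 and 2123 CPM in the DMSO libraries and 4094, 5140.2 and 4035 CPM with abemaciclib. The change was 1.30 ± 0.28 (adjusted p = 0.0059), 2.47-fold, and was the largest log2 fold change among the 13 mRNAs with abemaciclib. MT-ND5 read 2232, 2157 and 2348 CPM with DMSO and 4349, 4303 and 3723 CPM with abemaciclib, a change of 0.88 ± 0.09 with adjusted p = 7.0e-08. For both genes the groups were clearly apart. MT-ND2, MT-ND3 and MT-ND4 rose by 1.06, 1.07 and 0.98 on the log2 scale.

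Complex IV, cytochrome c oxidase, has its catalytic core in MT-CO1, MT-CO2 and MT-CO3. MT-CO1, the subunit with the site where oxygen is reduced, read 1387, 1479 and 1553 CPM with DMSO and 2807, 3052 and 2745 CPM with abemaciclib. MT-CO2, which accepts electrons from cytochrome c, read 4122, 4389.6 and 5219 CPM and then 9525, 10625 and 8400.5 CPM. MT-CO3 read 8261, 8748 and 9665 CPM with DMSO and 18367, 19789 and 18035 CPM with abemaciclib. The 3 genes changed by 0.96 ± 0.15, 1.06 ± 0.16 and 1.07 ± 0.12 (adjusted p = 3.7e-04, 3.3e-04 and 2.6e-06), and none of them overlapped with DMSO.

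MT-CYB, the cytochrome b of complex III, read 7058, 7752 and 8609.5 CPM with DMSO and 14667, 16467 and 14805 CPM with abemaciclib, a change of 0.97 ± 0.14 (adjusted p = 1.1e-04). MT-ATP6, a subunit of the proton channel of ATP synthase, read 6526, 7068 and 8820.1 CPM and then 14098, 16940 and 13540 CPM. Its change was 0.99 ± 0.26 (adjusted p = 0.015). MT-ATP8, a small subunit of the same enzyme read from an overlapping frame, read 3637, 3059.5 and 3718 CPM and 5518, 5157 and 4832 CPM. It changed by 0.57 ± 0.14 (adjusted p = 0.0045), and for both ATP synthase genes the groups did not overlap.

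**Figure D2:**
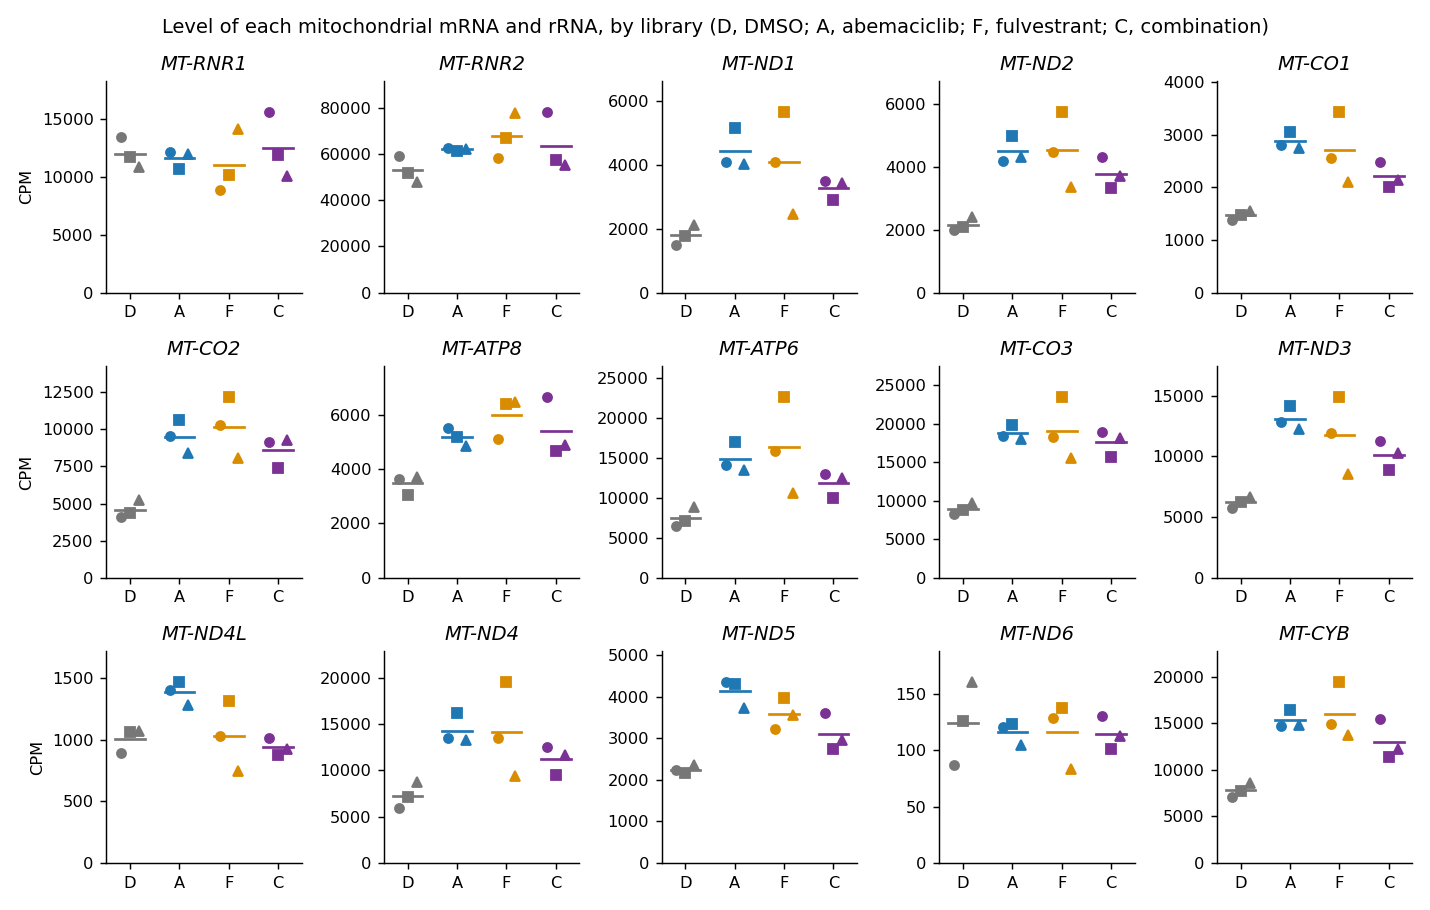
Level in CPM (vertical axes, each from 0) of the 13 mRNAs and 2 rRNAs in the 12 libraries. Circles, squares and triangles are replicates 1, 2 and 3 and bars are group means; MT-CO3 lies at a mean of 8892 CPM with DMSO and 18730, 19109 and 17591 CPM in the treated groups, whereas MT-ND6 and MT-RNR1 overlap throughout.

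With fulvestrant, 11 of the 13 mRNAs rose and none fell, against 25.3% of all genes tested called higher and 25.7% called lower, with a median log2 fold change of 0.96 beside 0.01 over all genes. For 11 of the 13 every fulvestrant library lay above every DMSO library, as for 26.7% of all genes. Leaving out fulvestrant replicate 3 left 11 mRNAs called and moved the median to 1.14. Leaving out fulvestrant replicate 2 also left 11 called and moved it to 0.74. Without DMSO replicate 1 MT-ND4 was lost.

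MT-CO3 read 18298, 23471 and 15557 CPM with fulvestrant, a change of 1.10 ± 0.12 (adjusted p = 1.1e-06). MT-CYB read 14916, 19431 and 13729 CPM and changed by 1.04 ± 0.14 (adjusted p = 3.8e-05). MT-ATP6 read 15875, 22625 and 10605 CPM and changed by 1.13 ± 0.26 (adjusted p = 0.0063). In each of these 3 genes replicate 2 was the highest fulvestrant library and replicate 3 the lowest, and even the lowest lay above the DMSO range.

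The other complex IV subunits rose by 0.87 for MT-CO1 and 1.15 for MT-CO2. Among complex I subunits the log2 fold changes were 1.18 for MT-ND1, 1.06 for MT-ND2, 0.92 for MT-ND3, 0.96 for MT-ND4 and 0.67 for MT-ND5, all called. MT-ATP8 and MT-ND5 were the exceptions to the order of the replicates. MT-ATP8 read 5114, 6379.9 and 6465 CPM, with replicate 3 the highest, and changed by 0.79 ± 0.14 (adjusted p = 3.3e-04). MT-ND5 read 3221, 3976 and 3559 CPM, with replicate 1 the lowest.

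With the combination, 9 of the 13 mRNAs rose and none fell, against 27.7% of all genes tested called higher and 27.5% called lower. The median log2 fold change was 0.66, beside 0.01 over all genes, and 11 of 13 lay above every DMSO library, as did 31.4% of all genes. MT-CO3 read 18904, 15698 and 18169 CPM and changed by 0.98 ± 0.12 (adjusted p = 3.4e-06), the largest change of the 13. MT-CO2 followed at 0.91 ± 0.16, MT-ND1 at 0.87 ± 0.28 and MT-ND2 at 0.80 ± 0.19.

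The smallest called change with the combination was that of MT-ND5, which read 3613, 2749.6 and 2963 CPM and changed by 0.47 ± 0.09 (adjusted p = 1.8e-04). MT-ATP6 and MT-ND4, both called with either single drug, were at 0.66 ± 0.26 and 0.63 ± 0.26 and did not pass the test (adjusted p = 0.058 and 0.074), although DESeq2 called 11 mRNAs, these 2 among them. MT-ND1 was lost without DMSO replicate 1 or 2 or without combination replicate 1 or 3, which left 8 mRNAs called each time.

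Set against abemaciclib alone, the combination had 2 mRNAs lower and none higher, where 17.7% of all genes tested were called lower and 15.9% higher. MT-ND5 was lower by 0.41 ± 0.09 (adjusted p = 0.0015) and MT-ND4L by 0.56 ± 0.18 (adjusted p = 0.033) on the log2 scale. The median of the 13 was −0.33. When the model held only the groups compared, 8 mRNAs were lower, and with DMSO replicate 1 and fulvestrant replicate 3 both left out 4 were. Further, MT-ND4L lost its call without abemaciclib replicate 1 or 2 or without any 1 of the combination replicates.

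Against fulvestrant alone, no mRNA was called, in a comparison where only 0.297% of all genes tested were called higher and 1.63% lower. The median of the 13 was −0.24. Leaving out fulvestrant replicate 2 moved it to −0.05, combination replicate 2 to −0.15 and fulvestrant replicate 3 to −0.40. With DMSO replicate 1 and fulvestrant replicate 3 both left out, MT-ND4L was called lower at −0.32 (adjusted p = 0.035 in edgeR). For MT-CO3 the 95% interval of the log2 difference was −0.37 to 0.13 and for MT-CYB it was −0.60 to 0.00, with the upper bound of the latter barely above 0, so both intervals hold 0. At an unadjusted p under 0.05 edgeR had 1 of the 13, MT-ND5, and DESeq2 also called none.

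The interaction asks whether the change with both drugs equals the sum of the single changes on the log2 scale. It was negative and called for 11 of the 13 mRNAs, where 11.6% of all genes tested were called in that direction and 9.49% in the other. The median of the 13 was −1.27, beside −0.01 over all genes. It was −1.61 ± 0.39 for MT-ND1 (adjusted p = 0.021), −1.19 ± 0.17 for MT-CO3 (adjusted p = 1.1e-04), −1.27 ± 0.20 for MT-CYB (adjusted p = 5.6e-04) and −1.08 ± 0.13 for MT-ND5 (adjusted p = 2.5e-06). The changes of these mRNAs with both drugs were thus smaller than the sum of the 2 single changes. Leaving out DMSO replicate 1, abemaciclib replicate 2 or combination replicate 2 left 8 mRNAs called, without MT-ATP6, MT-ND1 and MT-ND4, and leaving out fulvestrant replicate 3 left 11. MT-ND4 kept its call only without DMSO replicate 3 or fulvestrant replicate 3, and MT-ATP8 lost its call without fulvestrant replicate 2 or 3.

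**Figure D3:**
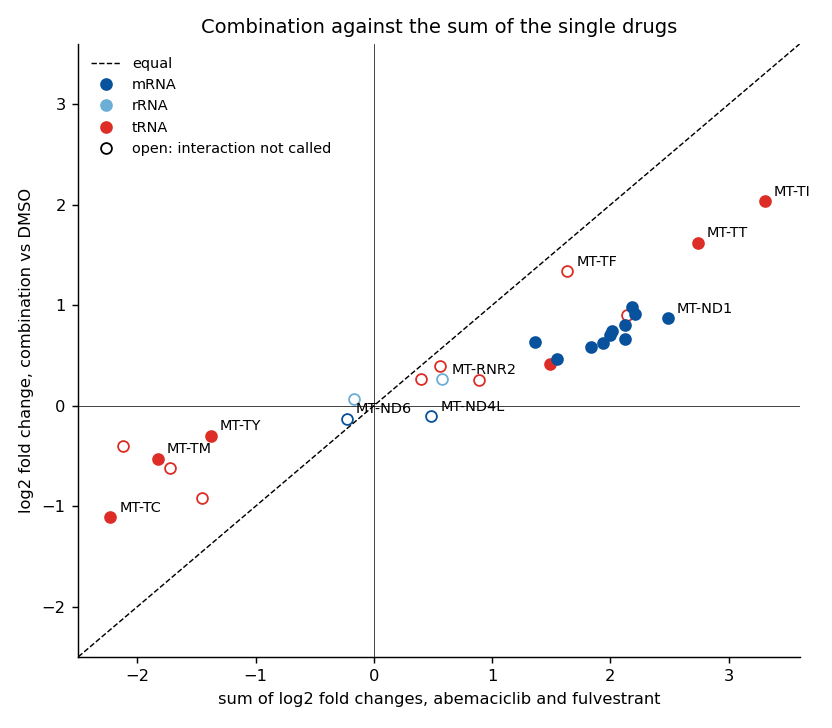
Log2 fold change of the combination against DMSO (vertical axis) against the sum of the log2 fold changes of the single drugs (horizontal axis) for the 29 tested members. The dashed line marks equality; the filled blue mRNA points have sums of 1.36 to 2.48 and combination changes of 0.47 to 0.98, below the line, and the filled red tRNA points at negative sums lie above it.

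2 mRNAs did not follow the others, and where the reads of their rows were primed was not tested. MT-ND4L, a complex I subunit made from the same transcript as MT-ND4, read 892, 1064 and 1074 CPM with DMSO, 1409, 1471 and 1287 CPM with abemaciclib, 1034, 1313 and 744 CPM with fulvestrant and 1018, 874 and 930.1 CPM with the combination. The changes were 0.46 ± 0.17, 0.03 ± 0.18 and −0.10 ± 0.18 (adjusted p = 0.062, 0.91 and 0.65). The abemaciclib libraries lay above the DMSO range without reaching the threshold, though DESeq2 called that change, and the other groups overlapped with DMSO. The counts of MT-ND4L relative to MT-ND4 were 0.141 ± 0.0160 with DMSO and 0.0975 ± 0.00693, 0.0744 ± 0.00639 and 0.0845 ± 0.00653 with the 3 treatments, lower in every treated library than in any DMSO library.

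MT-ND6, the light-strand complex I subunit, read 87.3, 126 and 161 CPM with DMSO, 120.5, 123 and 105 CPM with abemaciclib, 129, 137 and 83.6 CPM with fulvestrant and 131, 102 and 113 CPM with the combination. Every treated library lay inside the DMSO range except fulvestrant replicate 3, just below it. The log2 fold changes were −0.11, −0.11 and −0.13, each with an SE of 0.24 and adjusted p = 0.74, 0.72 and 0.68, and all 3 turned positive without DMSO replicate 3. With DMSO replicate 1 and fulvestrant replicate 3 both left out, MT-ND6 was called lower with abemaciclib at −0.30 and with the combination at −0.32 (adjusted p = 0.018 and 0.0080 in edgeR). In the fit to all libraries, the 95% interval with abemaciclib, −0.66 to 0.43, did not reach the changes of the other complex I subunits that rose. Relative to MT-ND5, its neighbour on the opposite strand, MT-ND6 had 0.0554 ± 0.0150 times the counts with DMSO and 0.0282 ± 0.000465, 0.0327 ± 0.00839 and 0.0371 ± 0.000966 times with the treatments. This ratio ran from 0.0391 to 0.0685 in the DMSO libraries, and fulvestrant replicate 1, at 0.0400, lay inside that range.

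The 2 rRNAs moved little. MT-RNR1, the RNA of the small mitoribosomal subunit, read 13453, 11694 and 10857 CPM with DMSO, 12147, 10678 and 11997 CPM with abemaciclib, 8851, 10183 and 14151 CPM with fulvestrant and 15637, 11934 and 10056 CPM with the combination. Its changes were −0.05 ± 0.20, −0.12 ± 0.20 and 0.06 ± 0.20, none called (adjusted p = 0.87, 0.66 and 0.82), and each changed sign when a single library was left out. All groups overlapped, and the spread within the fulvestrant and combination groups was wider than any difference between means.

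MT-RNR2, the RNA of the large subunit, read 59071, 51689 and 48090 CPM with DMSO, 62663, 61219 and 61957 CPM with abemaciclib, 58051, 66902 and 77948 CPM with fulvestrant and 78265, 57224 and 55196 CPM with the combination. It rose with fulvestrant by 0.35 ± 0.13 (adjusted p = 0.035), although fulvestrant replicate 1 lay inside the DMSO range, and the call was lost without DMSO replicate 2 or 3 or fulvestrant replicate 2 or 3, at 0.24 to 0.36. With abemaciclib and the combination it changed by 0.23 ± 0.13 and 0.26 ± 0.13, neither called. The counts of MT-RNR1 relative to MT-RNR2 were 0.227 ± 0.00103 with DMSO, 0.187 ± 0.0112 with abemaciclib, 0.162 ± 0.0169 with fulvestrant and 0.197 ± 0.0134 with the combination, below every DMSO library in all 9 treated libraries.

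Of the 14 tRNA genes tested, abemaciclib had 4 higher and 3 lower, fulvestrant 4 higher and 4 lower, and the combination 3 higher and 1 lower. The shares of all genes tested that were called higher and lower were 20.5 and 20.7%, 25.3 and 25.7%, and 27.7 and 27.5%. The tRNA counts thus lay near or somewhat above the background with either single drug and below it with the combination. MT-TF, the phenylalanine tRNA at the start of the heavy-strand transcript, was the tRNA row with the most counts. It read 399, 451 and 412 CPM with DMSO, 773, 723 and 755 CPM with abemaciclib, 654, 804 and 741 CPM with fulvestrant and 1259, 1042 and 886 CPM with the combination. The combination libraries lay above those of every other group. Its changes were 0.83 ± 0.10, 0.80 ± 0.10 and 1.34 ± 0.10 (adjusted p = 1.2e-06, 1.2e-06 and 4.7e-10). It was the one member called between the combination and fulvestrant, at 0.54 ± 0.10 (adjusted p = 0.0034), and its interaction was not called.

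MT-TI, the isoleucine tRNA, read 9.20, 11.2 and 9.92 CPM with DMSO, 27.6, 30.5 and 31.6 CPM with abemaciclib, 29.4, 45.4 and 30.1 CPM with fulvestrant and 42.6, 38.0 and 45.0 CPM with the combination. Its changes of 1.54 ± 0.17, 1.76 ± 0.17 and 2.03 ± 0.17 (adjusted p = 5.2e-08, 2.1e-09 and 5.0e-11) were the largest of any tested member in each comparison. MT-TT, the threonine tRNA, rose by 1.10 ± 0.23, 1.64 ± 0.22 and 1.62 ± 0.22 (adjusted p = 4.4e-04, 7.0e-07 and 5.4e-07), from 3.56, 5.51 and 4.34 CPM with DMSO to 14.0, 14.7 and 13.8 CPM with the combination. MT-TI follows the end of MT-ND1 without a gap, and MT-TT that of MT-CYB. MT-TW, MT-TG, MT-TR and MT-TH likewise follow MT-ND2, MT-CO3, MT-ND3 and MT-ND4, mRNAs that rose with either single drug. Those tRNA rows were below the filter and not tested. MT-TV and MT-TL1, which follow MT-RNR1 and MT-RNR2 in the same way, were tested and not called. MT-TD, the aspartate tRNA, rose with abemaciclib by 0.86 and with fulvestrant by 0.63, and was at 0.41 with the combination, not called. Its call with fulvestrant was lost without DMSO replicate 1 or fulvestrant replicate 2 or 3, at 0.49 to 0.56.

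MT-TC, the cysteine tRNA, read 19.0, 23.2 and 21.3 CPM with DMSO, 14.0, 8.17 and 10.1 CPM with abemaciclib, 6.67, 7.90 and 11.9 CPM with fulvestrant and 14.0, 9.30 and 6.80 CPM with the combination. It was the only tRNA row called lower in all 3 comparisons with DMSO, at −0.97 ± 0.23, −1.26 ± 0.24 and −1.11 ± 0.23 (adjusted p = 0.0015, 1.2e-04 and 2.7e-04). No treated library reached the DMSO range. MT-TY, the tyrosine tRNA next to it, went from 47.8, 51.5 and 46.9 CPM with DMSO to 30.0, 27.2 and 29.3 CPM with abemaciclib and 31.6, 22.6 and 40.1 CPM with fulvestrant, and fell by 0.76 and 0.62 on the log2 scale.

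MT-TM, the methionine tRNA upstream of MT-ND2, read 66.8, 68.2 and 49.2 CPM with DMSO, 30.8, 24.3 and 34.6 CPM with abemaciclib, 34.6, 23.1 and 47.4 CPM with fulvestrant and 48.1, 46.5 and 33.2 CPM with the combination. It changed by −1.04 ± 0.24, −0.79 ± 0.24 and −0.53 ± 0.23 (adjusted p = 0.0057, 0.019 and 0.078), the last not called. MT-TP, the proline tRNA, was lower with fulvestrant by 0.93 (adjusted p = 0.047) and at −0.79 and −0.62 in the other comparisons, not called. With fulvestrant, MT-TM lost its call without DMSO replicate 1 or 2 or fulvestrant replicate 1, at −0.69 to −0.76, and MT-TP without any 1 of the DMSO replicates or fulvestrant replicate 1 or 2, the smallest change being −0.68. All 3 rows on the − strand that passed the test fell, whereas of the + strand tRNA rows that passed 4 rose and MT-TM fell. The tested rows that were not called did not divide in this way. MT-TQ and MT-TE on the − strand had positive changes in each comparison with DMSO. On the + strand, MT-TL2 and MT-TS2 had negative changes and MT-TV and MT-TL1 positive ones.

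The other 6 tRNA rows tested were not called in any comparison. MT-TV, MT-TL1, MT-TQ, MT-TL2, MT-TS2 and MT-TE, the tRNAs for valine, leucine, glutamine, leucine, serine and glutamate, had log2 fold changes from −1.15 to 1.09 against DMSO. MT-TQ, MT-TL2 and MT-TE had at most 14.4 CPM in any library. MT-TQ was at 1.05 ± 0.59, 1.09 ± 0.60 and 0.91 ± 0.60, and its fulvestrant libraries read 5.44, 14.4 and 1.37 CPM, a wider spread than in MT-TD or MT-TT. MT-TK, the lysine tRNA, had 0 counts in all 12 libraries, which allows a share of up to 9.09e-05% in the smallest library. Against abemaciclib, the combination had MT-TF, MT-TI, MT-TY and MT-TT higher, by 0.50, 0.49, 0.46 and 0.52, and no tRNA row lower. In that comparison 15.9% of all genes tested were called higher and 17.7% lower.

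**Figure D4:**
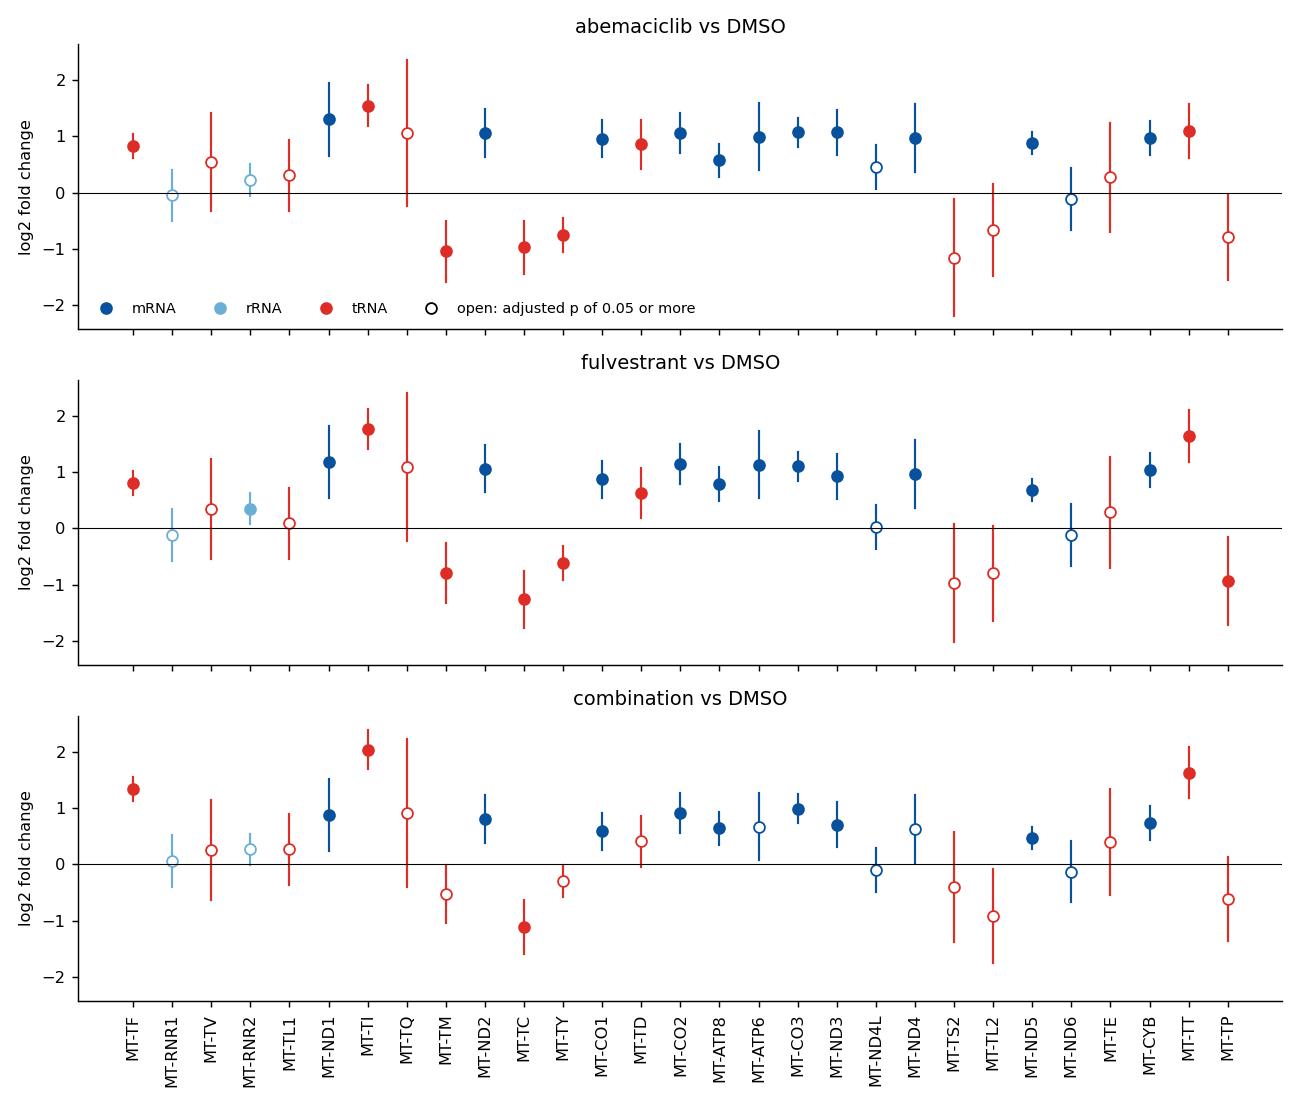
Log2 fold change against DMSO (vertical axes) of the 29 tested members in their order along the mitochondrial genome, for the 3 treatments. Lines span the 95% interval and filled points were called; most blue mRNA points lie near 1 with either single drug, MT-ND6 and MT-RNR1 lie near 0, and MT-TM, MT-TC and MT-TY lie below 0.

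The nuclear genes that read and process this genome include TFAM, POLRMT, TFB2M and the LRPPRC complex. TFAM, which packages mitochondrial DNA and is needed to start its transcription, read 102, 113 and 117 CPM with DMSO, 75.2, 73.7 and 76.6 CPM with abemaciclib, 75.1, 69.7 and 80.0 CPM with fulvestrant and 75.1, 85.8 and 74.8 CPM with the combination. It fell by 0.56, 0.56 and 0.50 on the log2 scale (adjusted p = 1.7e-05, 1.1e-05 and 4.3e-05), and every treated library lay below the DMSO range. Its interaction was 0.63 ± 0.13 (adjusted p = 0.001), the opposite sign to that of the mRNAs.

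POLRMT, the mitochondrial RNA polymerase, was at −0.16, −0.07 and 0.14, and TFB2M, its partner at promoters, at −0.12, 0.06 and −0.52, none called. TFB2M had 6.53, 10.1 and 9.51 CPM with DMSO, and the 95% interval of its change with abemaciclib ran from −1.25 to 1.01. LRPPRC and SLIRP form the complex that holds mitochondrial mRNAs stable. LRPPRC was lower with fulvestrant, at −0.32 ± 0.10 (adjusted p = 0.012), a call lost without DMSO replicate 3 at −0.26 or fulvestrant replicate 3 at −0.24, and at 0.05 and −0.21 otherwise, and SLIRP was at 0.05, −0.18 and −0.15, not called.

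Of 29 genes of mitochondrial transcription and RNA processing, 4 rose and 4 fell with abemaciclib, 4 rose and 8 fell with fulvestrant, and 3 rose and 8 fell with the combination, with medians of 0.05, −0.10 and −0.16. Over all genes tested, 20.5% were called higher and 20.7% lower with abemaciclib, 25.3 and 25.7% with fulvestrant, and 27.7 and 27.5% with the combination, so the counts of this list lay near or below the background. REXO2, an exonuclease that degrades short RNAs in mitochondria, read 35.6, 37.8 and 40.7 CPM with DMSO and 64.8, 73.7 and 68.2 CPM with abemaciclib, and rose by 0.85, 0.84 and 0.90 with the 3 treatments. PNPT1, the exonuclease of the mitochondrial degradosome, fell by 0.55, 0.87 and 0.68. TBRG4, an RNA-binding protein of the FASTK family, fell by 0.82 with fulvestrant and 0.75 with the combination, and MTERF4 rose by 0.71 and 0.43. No gene of these lists was called between the combination and fulvestrant.

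Among 18 genes of mitochondrial DNA replication and nucleotide supply, 1 rose and 5 fell with abemaciclib, 3 rose and 7 fell with fulvestrant, and 3 rose and 6 fell with the combination. The shares that fell are near or somewhat above, and those that rose below, those of all genes given above. ATAD3A and ATAD3B, membrane ATPases linked to nucleoids, fell by 0.83 and 1.64 with abemaciclib, with ATAD3B at only 3.86, 5.32 and 5.99 CPM in the DMSO libraries. These 2 genes are near-identical neighbours that may share reads. TWNK, the replicative helicase, was at −0.27 with abemaciclib, not called, and fell by 0.88 with fulvestrant and 1.24 with the combination. Of 8 tested regulators of mitochondrial biogenesis none rose, and 4, 3 and 4 fell with the 3 treatments, NRF1 by 1.24, 0.81 and 0.82. Over all genes tested, 20.5, 25.3 and 27.7% were called higher and 20.7, 25.7 and 27.5% lower.

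The nuclear subunits of the same complexes had median changes close to 0. Of 77 nuclear genes tested for complexes I to IV and ATP synthase, 14 rose and 21 fell with abemaciclib, 9 rose and 26 fell with fulvestrant, and 10 rose and 32 fell with the combination. Their median log2 fold changes were −0.07, −0.13 and −0.12. With abemaciclib slightly fewer rose and more fell than the 20.5 and 20.7% of all genes called higher and lower. With fulvestrant and the combination fewer rose and more fell than the 25.3 and 25.7%, and 27.7 and 27.5%, of all genes. In complex I, 6 of 36 nuclear subunits rose and 15 fell with abemaciclib, where 5 of 7 mitochondrial subunits rose. NDUFA9 fell by 0.78 with abemaciclib and 0.62 with fulvestrant.

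In complex IV, COX6C rose by 0.69 with abemaciclib (adjusted p = 0.0084), the largest rise among its nuclear subunits, of which 2 of 11 rose and 3 fell. With the combination none of the 11 rose and 6 fell, where all 3 mitochondrial subunits rose. The shares of all genes called higher and lower were 20.5 and 20.7% with abemaciclib and 27.7 and 27.5% with the combination. In complex III, UQCR11 rose by 0.43, 0.40 and 0.49 and CYC1, which holds cytochrome c1, fell by 0.25, 0.48 and 0.43. Complex II has no mitochondrial subunit, and its SDHB fell by 0.59 with fulvestrant and 0.63 with the combination. For ATP synthase 1 of 17 nuclear subunits rose and 8 fell with the combination, ATP5MC2 rising by 0.46 and ATP5MF falling by 0.46. For the interaction 10 of the 77 nuclear subunits were called positive and 5 called negative, with a median of 0.05, where 9.49% of all genes were called positive and 11.6% negative.

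**Figure D5:**
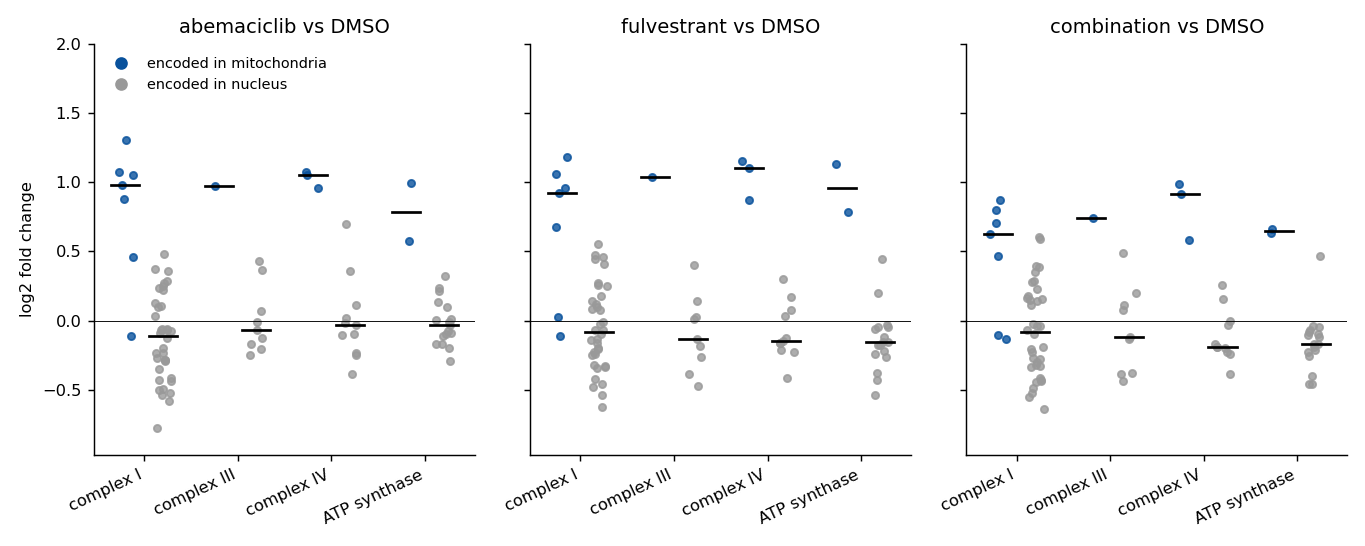
Log2 fold change against DMSO (vertical axis) of the tested subunits of each respiratory complex, by the genome that encodes them; black bars are medians and the sideways scatter has no meaning. Mitochondrial subunits of complex IV have medians of 1.06, 1.10 and 0.91 with abemaciclib, fulvestrant and the combination, and its nuclear subunits have medians of −0.03, −0.15 and −0.19.

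Nuclear DNA holds near-identical copies of parts of the mitochondrial genome, and reads could be split between a gene and its copy. A copy was examined where it held at least 10 counts in every library of a group. The row with the most counts was MTATP6P1 (chr1:633696-634376), which shares 671 of 681 bases with MT-ATP6 and read 144, 224 and 321 CPM with DMSO, 639, 947 and 611 CPM with abemaciclib, 875, 1392 and 249 CPM with fulvestrant and 493, 464 and 466 CPM with the combination. It was higher with abemaciclib by 1.67 ± 0.56 (adjusted p = 0.043) and with fulvestrant by 1.86 ± 0.56 (adjusted p = 0.023). Fulvestrant replicate 3 was its lowest treated library, and the row held 0.0221 to 0.0615 times the counts of MT-ATP6 in any library.

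The copies MTND1P23, MTCO2P12 and MTCO1P40, at 96.0 to 99.1% identity with their mitochondrial genes over the aligned bases, were higher with all 3 treatments, by 0.94, 0.66 and 0.83 with abemaciclib. MTND4P12 was higher with either single drug, and MTCO1P12 with fulvestrant and the combination. MTND2P28, MTND5P11, MTND4P35 and MTND6P3 were not called in any comparison. Of the copies of MT-RNR2, MTRNR2L12 and MTRNR2L1 were higher with the combination, by 0.42 and 0.36, and MTRNR2L8 was not called. All copies other than MTATP6P1 and MTRNR2L12 read at most 39.7 CPM in any library. Whether these rows hold their own transcripts or reads of the mitochondrial gene was not tested.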

How the data were processed

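Per the labels, RNA was extracted from cell pellets of 12 cultures and libraries were made with a 3′ kit that primes at poly(A). The authors deposited raw counts per gene symbol, whole numbers that had not been normalised. The methods of the study name BBDuk for trimming, STAR for alignment to hg38 and featureCounts for counting (version 2.0.1 in the submitters' processing notes) with GENCODE v35. The strand setting, the treatment of reads that map to several places and the use of molecular identifiers are not given in the sources used here, so reads cannot be taken as independent molecules, and intervals and the floor of 3 counts cover counting error only.

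The analysis used edgeR 4.0.16 in R 4.3.3. The 44 rows with no gene name held 0 reads and were left out. A total of 11803 genes passed filterByExpr, run by group with a minimum count of 10 and a minimum total of 15, and library sizes were scaled with TMM factors. 1 quasi-likelihood model with 4 group means and robust dispersions was fitted to all 12 libraries, with Benjamini-Hochberg adjustment over every gene that passed the filter (threshold 0.05). The interaction is the change with the combination minus the sum of the single-drug changes. Standard errors were derived from the F statistic, and 95% intervals from them with the t quantile at the degrees of freedom of each gene. Shares are counts over all counts of a library, with Wilson intervals from scipy 1.17.1. The study tested with DESeq2, which was run as an alternative (1.42.0). The other alternatives were scaling (DESeq2 size factors, upper quartile, library totals, nuclear genes only), the filter, the groups in the fit, a replicate block and each library left out. Sequences and coordinates are from GRCh38 and GENCODE v44, and copies were aligned locally with Biopython 1.88.

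Every member was accounted for: the 13 mRNAs and 2 rRNAs were named with values, tRNA genes where they passed the filter, TFAM, POLRMT, TFB2M, LRPPRC and SLIRP always, and from each nuclear list up to 3 called genes with the largest change per comparison, of which the text gives those it needs. The members and lists were chosen with earlier results of these data known.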

Additional observations from a re-analysis of the deposited data

Results flagged for a closer look

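The change with abemaciclib differed between cells with and without fulvestrant, by the test of the interaction in edgeR (adjusted p under the threshold), for 11 of the 13 mitochondrial mRNAs. Each had a negative value on the log2 scale, a call made for 11.6% of all genes tested. The values were −1.61 for MT-ND1, −1.32 for MT-ND2, −1.29 for MT-ND3, −1.31 for MT-ND4 and −1.08 for MT-ND5. They were −1.25 for MT-CO1, −1.29 for MT-CO2 and −1.19 for MT-CO3, and −0.73 for MT-ATP8, −1.46 for MT-ATP6 and −1.27 for MT-CYB. Abemaciclib raised each of these mRNAs in the absence of fulvestrant, by 0.57 for MT-ATP8 to 1.30 for MT-ND1, whereas the combination against fulvestrant gave −0.12 for MT-CO3 to −0.47 for MT-ATP6, with 0 of the 11 called by edgeR or DESeq2 and 1, MT-ND5, at an unadjusted p under 0.05 in edgeR.

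The same test called 6 of the 14 tRNA rows tested, where it called 9.49% of all genes positive and 11.6% negative. It was negative for 3 rows that abemaciclib raised, −1.27 for MT-TI, −1.08 for MT-TD and −1.12 for MT-TT, and positive for 3 rows that abemaciclib lowered, 1.30 for MT-TM, 1.12 for MT-TC and 1.08 for MT-TY. No cause was tested for either set.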

How the results depend on the processing

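The share of counts rested on the class of RNA: with the counts of MT-RNR1 and MT-RNR2 taken out of both the members and the library totals, the group means were 6.06% with DMSO, 11.5% with abemaciclib, 11.7% with fulvestrant and 10.2% with the combination, and for the 13 mRNAs only, over all counts, they were 5.56, 10.6, 10.7 and 9.21%. Of the 29 members tested, 18 were called with abemaciclib, 20 with fulvestrant and 13 with the combination. The combination against abemaciclib and fulvestrant had 6 and 1, and the interaction 17. In the same order, 4864, 6023, 6519, 3959, 227 and 2493 of all 11803 genes tested were called. With only the groups compared in the fit, the combination against abemaciclib had 14 members called. With each library left out in turn the counts ranged from 16 to 19, 16 to 20, 12 to 15, 3 to 6, 1 to 2 and 13 to 19. The 3 for the combination against abemaciclib arose without abemaciclib replicate 1 or 2 or combination replicate 3, and the 2 against fulvestrant without fulvestrant replicate 3. With DMSO replicate 1 and fulvestrant replicate 3 both left out, chosen after seeing the data, the counts were 21, 20, 15, 8, 2 and 18.

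Replicate numbers did not pair the libraries: of 18 correlations between libraries with the same number, from −0.21 to 0.12, 2 were over 0.1, and 0 libraries correlated best with their own number in every other group. DMSO replicate 1 and fulvestrant replicate 3, which differ in number, correlated at 0.30, above all 18 of these, and why was not tested. With a replicate block the counts were 18, 19, 13, 6, 1 and 15.

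Of 1707 recomputed log2 fold changes of 102 reported ones, 1588 kept their direction and side of the threshold, 58 lost and 37 gained a call, and 24 changed sign, 0 of them called. With each library left out in turn, the values that changed sign ranged, for MT-RNR1, from −0.109 to 0.0422 with abemaciclib, −0.335 to 0.0299 with fulvestrant and −0.119 to 0.204 with the combination, and, for MT-ND6, from −0.302 to 0.116, −0.300 to 0.119 and −0.322 to 0.0968, and for its interaction from −0.138 to 0.280. They ranged from −0.185 to 0.215 for MT-ND4L, −0.131 to 0.0077 for POLRMT and −0.521 to 0.394 for TFB2M with fulvestrant, and from −0.350 to 0.0770 for TFB2M and −0.0310 to 0.110 for LRPPRC with abemaciclib. MT-RNR1 with abemaciclib was at 0.0419 with DMSO replicate 1 and fulvestrant replicate 3 both left out. With library totals only, MT-ND4L and TFB2M with fulvestrant were at −0.0388 and −0.0039, and LRPPRC and SLIRP with abemaciclib at −0.0137 and −0.0125. Library totals only moved the median interaction of all genes from −0.01 to 0.10 and left 11 mRNAs called. The cause was not tested. The 8 tRNA genes with 0 to 14 counts in any library were below the filter and not tested.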
